A study of Mus musculus with 5 samples.

Results

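Genes of the major histocompatibility complex (MHC) and of antigen presentation were followed in mouse liver, with class I and class II kept apart. They were taken as the probes whose platform symbol, brought up to date through RefSeq, was 1 of 9 listed genes. Of these, 7 were named on the array, each by 1 probe, among 16637 named genes in all. Class II was represented by H2-Aa, H2-Eb1 and Cd74, and class I by H2-D1, B2m, Tap1 and Tapbp. No value is given for H2-Ab1 or H2-K1, which no probe used here names.

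Liver RNA was hybridised in 1 colour (Cy5) to 5 Phalanx Mouse OneArray slides, with 1 array per group. All mice had a C57BL/6 background per the labels. Of the wild-type (WT) groups, 1 ate chow, 1 a high-fat diet, and 1 that diet with NDGA (nordihydroguaiaretic acid), 2.5 g in each kg of food. Mice of the ob/ob genotype, which lack functional leptin throughout the body, were given chow or chow with NDGA at the same dose, and all diets lasted 16 weeks. NDGA, a lignan of plants, is known as an antioxidant and an inhibitor of lipoxygenases. RNA of 3 animals was used per group. The sources used here give neither the age of the mice nor whether the RNA was pooled. Each group has 1 column of values, so no gene has a replicate, a test or an error between mice, and each difference below is between 2 arrays.

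Class II molecules are pairs of an alpha and a beta chain that display peptides from engulfed proteins to CD4+ T cells. They are made mainly by macrophages, dendritic cells and B cells, and their assembly needs the invariant chain, CD74. Class I molecules are present on nearly all cells and display peptides from the cell's own proteins to CD8+ T cells. Each consists of a heavy chain and beta-2 microglobulin, and is loaded in the endoplasmic reticulum with peptides pumped in by the TAP transporter, to which tapasin (Tapbp) tethers it. In liver, Kupffer cells, the resident macrophages, and sinusoidal endothelial cells present antigen, and interferon-gamma induces both classes.

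Both classes share promoter elements just upstream of their starts, among them the Y box, a CCAAT motif bound by NF-Y, and the X2 box, bound by CREB and ATF factors. Class I promoters also carry an NF-kappaB site and an interferon response element. The 250 bases before the start are shown for the class II chains and for the class I heavy chain and its partner. These were chosen as promoters on which CIITA (class II) and NLRC5 (class I) act. They come from RefSeq on GRCm38.p6, and 7 of the 9 genes had a window in the table used. H2-Aa lies at chr17:34287824-34288073 on the minus strand, H2-Eb1 at chr17:34305617-34305866 on the plus strand, H2-D1 at chr17:35262844-35263093 on the plus strand and B2m at chr2:122147437-122147686 on the plus strand. Capitals mark matches, on either strand, to CTGATTGG (Y box), CCAAT (its core, contained in the first), AANNGAAA (core of the interferon response element), the NF-kappaB site of class I genes (seen once, in H2-D1, just upstream of an interferon response match) and TGACG (core of the X2 box, added after the windows were seen).
H2-Aa: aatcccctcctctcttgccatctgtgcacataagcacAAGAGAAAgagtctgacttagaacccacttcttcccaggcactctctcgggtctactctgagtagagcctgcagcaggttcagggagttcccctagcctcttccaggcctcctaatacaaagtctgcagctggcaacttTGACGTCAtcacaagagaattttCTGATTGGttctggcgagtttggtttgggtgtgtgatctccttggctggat
H2-Eb1: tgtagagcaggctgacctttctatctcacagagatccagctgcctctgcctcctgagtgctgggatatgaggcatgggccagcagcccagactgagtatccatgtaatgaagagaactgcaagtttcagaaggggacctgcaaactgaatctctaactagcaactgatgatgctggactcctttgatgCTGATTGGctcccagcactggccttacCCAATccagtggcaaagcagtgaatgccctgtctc
H2-D1: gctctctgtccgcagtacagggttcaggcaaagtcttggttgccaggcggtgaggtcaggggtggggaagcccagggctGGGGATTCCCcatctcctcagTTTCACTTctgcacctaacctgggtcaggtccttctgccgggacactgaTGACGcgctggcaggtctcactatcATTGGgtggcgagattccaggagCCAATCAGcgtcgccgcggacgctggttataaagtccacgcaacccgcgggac
B2m: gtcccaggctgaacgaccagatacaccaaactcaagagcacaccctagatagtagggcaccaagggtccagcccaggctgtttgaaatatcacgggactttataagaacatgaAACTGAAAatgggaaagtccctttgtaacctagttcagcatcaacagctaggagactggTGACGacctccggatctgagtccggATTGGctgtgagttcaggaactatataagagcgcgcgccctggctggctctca
CTGATTGG was found upstream in 4 of the 6 measured genes with a window (H2-Aa, H2-Eb1, H2-D1 and Tap1) and in 3.83% of 32851 RefSeq windows of 250 bases. It began 51 bases before the start of H2-Aa and 62 before that of H2-Eb1. CCAAT was found in 6 of 6 and in 33.8% of all windows. TGACG was found in 4 of 6, not in the H2-Eb1 or Tapbp window, and in 17.8% of all. AANNGAAA was found in H2-Aa, H2-D1 and B2m and in 21.3% of all windows. The NF-kappaB site was found in H2-D1 alone of the 6, and in 0.0852% of all windows. These matches describe letters in the windows and were not tested for binding.

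The deposited values are linear probe intensities, and some lie below 0, as they do after a background has been subtracted. Array medians ran from 38.1 on ob/ob chow to 71.0 on ob/ob chow with NDGA, so the arrays were brought to a common distribution (quantile normalization) before differences were taken as log2(value + 50), a scale that understates the change of dim probes. A probe's level is read here against the 95th percentile of 703 olfactory receptor probes, whose genes liver does not use; it lay between 425 and 700.1 on the 5 arrays. H2-Aa, H2-Eb1, H2-D1, B2m and Tapbp were above it on all 5 arrays, whereas Cd74 and Tap1 were below it on all 5. The SD per probe of a difference was taken from genes with a pair of bright probes. On the log2 scale it was between 0.25 (ob/ob against WT) and 0.50 (NDGA in ob/ob). This is a spread between probes of the same arrays, not between mice. It need not hold for dim probes such as those of Cd74 and Tap1. Albumin, the hepatocyte marker, read 62274 on ob/ob chow and was saturated, at 65551 or more, on the other arrays.

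Class II genes were lowest on the array of WT mice given high-fat diet with NDGA. H2-Aa, the alpha chain of the I-A molecule (17:34282744-34287823), read an intensity of 1044.5 in WT on chow, 2057 on high-fat diet, 851 on high-fat diet with NDGA, 1502 in ob/ob on chow and 5173 in ob/ob on chow with NDGA. The high-fat array was thus above both other WT arrays, and the ob/ob array with NDGA was the highest of the 5. H2-Eb1, the beta chain of the I-E molecule (17:34305867-34316674), read 1146, 1496, 880 in the same 3 WT groups, 1558 in ob/ob on chow and 2489 with NDGA. Its order over the 3 WT arrays was that of H2-Aa. Cd74, the invariant chain, read 58.4, 113 and 32.6 in the 3 WT groups, 67.3 in ob/ob on chow and 419 with NDGA. It followed the order of H2-Aa on all 5 arrays, although all its readings lay within the range of olfactory receptor probes. After normalization the highest array exceeded the lowest by 1.90 for H2-Aa, 1.12 for H2-Eb1 and 2.04 for Cd74 (log2 differences; for H2-Eb1 the highest was then ob/ob on chow), and the median over 8319 expressed genes was 0.61. Expressed genes are those whose mean is no lower than the median of all named genes.

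**Figure D1:**
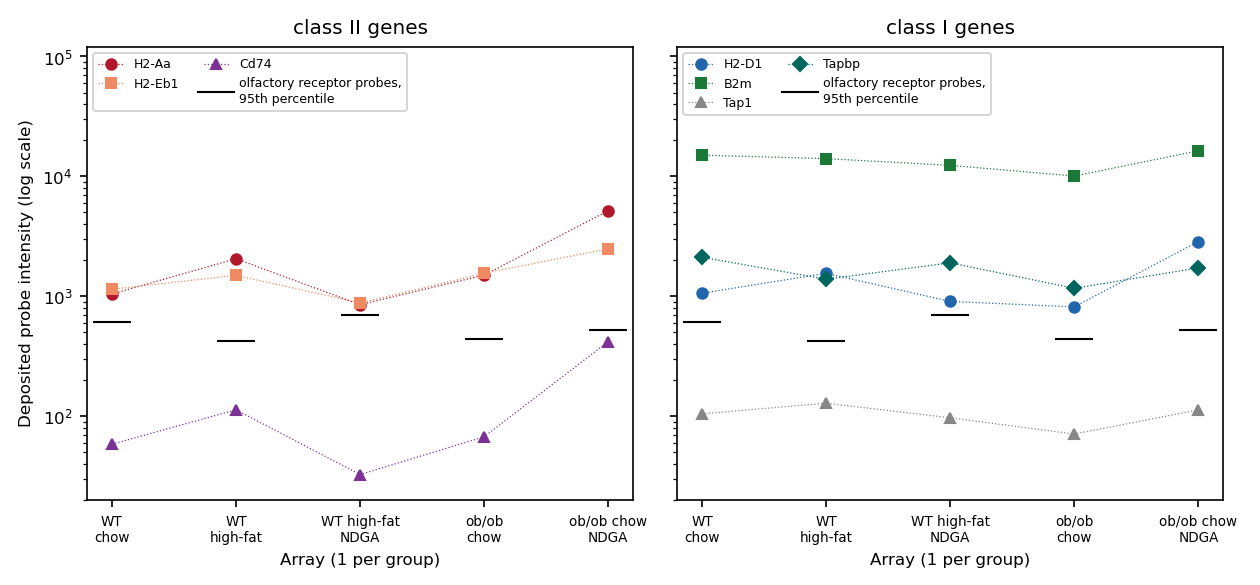
Deposited probe intensity (log axis) of each class II gene (left) and class I gene (right) on the 5 arrays, 1 per group; dotted lines join readings of a probe and black bars mark the 95th percentile of olfactory receptor probes. H2-Aa runs from 851 to 5173 and Cd74 from 32.6 to 419, both lowest on the WT high-fat NDGA array, while B2m stays between 10067 and 16350.

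The class I genes did not share 1 pattern. H2-D1, a classical heavy chain (17:35263094-35267497), read 1061 in WT on chow, 1554 on high-fat diet, 906 on high-fat diet with NDGA, 816 in ob/ob on chow and 2861 in ob/ob on chow with NDGA. Its 3 WT arrays were ordered like those of class II. The heavy chain genes are alike in sequence and the RefSeq table lists H2-D1 among the synonyms of H2-K1, so this probe's signal may hold RNA of related genes. B2m, the light chain shared by all class I molecules (2:122147687-122153082), read 15045, 14070 and 12360 in the 3 WT groups, 10067 in ob/ob on chow and 16350 with NDGA. Tapbp (17:33919478-33929290) read 2117, 1388 and 1902 in the 3 WT groups, 1166 in ob/ob on chow and 1725 with NDGA. It was lowest of the WT arrays on high-fat diet, where H2-D1 was highest. Tap1, a subunit of the peptide transporter (17:34187556-34197225), had its lowest reading on ob/ob chow (70.9) and its highest on WT high-fat diet (128). After normalization the highest array exceeded the lowest by 1.00 for H2-D1, 0.94 for Tapbp, 0.64 for B2m and 0.59 for Tap1 (log2 differences). The normalized order differed from that of the deposited readings: B2m, Tapbp and Tap1 were lowest on the ob/ob NDGA array, the brightest of the 5, and B2m was highest in WT on chow, while H2-D1 was lowest on the WT high-fat NDGA array.

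The first comparison, of high-fat diet with chow in WT mice, concerns the liver in diet-induced obesity. All 3 class II genes read higher on the high-fat array: H2-Aa by a log2 difference of 0.93 (1.90-fold), Cd74 by 0.60 and H2-Eb1 by 0.38. Their median was 0.60, and that of 8319 expressed genes was -0.01. H2-D1 was at 0.53 and Tap1 at 0.23, whereas Tapbp was at -0.60 and B2m at -0.16, which gave class I a median of 0.04. The difference exceeded the SD per probe of 0.35 for H2-Aa, H2-D1, Tapbp and, only barely, H2-Eb1. That of Cd74 did so too, but its probe is dim and that SD need not hold for it. No member reached 2-fold (0 of 7, of which 7 passed the filter on dim genes), a size reached by 3.46% of expressed genes.

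The second comparison sets high-fat diet with NDGA against the diet alone, and concerns the effect of NDGA in diet-induced obesity. Class II genes were lower with NDGA. H2-Aa was at -1.27 (2.42-fold lower), Cd74 at -1.10 and H2-Eb1 at -0.79, with a median of -1.10 beside -0.03 for all expressed genes. H2-D1 was lower by a similar amount (-0.80) and Tap1 was at -0.39, but Tapbp was at 0.40 and B2m at -0.02, and the class I median was -0.21. H2-Aa and Cd74 were at least 2-fold lower, that is 2 of 7 members, where 1.56% of expressed genes were (2.46% in either direction); Cd74 was not among the expressed genes of this comparison, and without normalization it was at -0.98. This comparison shares the high-fat array with the one before, so a high reading on that array enters both with opposite sign. Set against chow directly, the high-fat NDGA array read lower for all 7 members, from -0.15 for Tap1 to -0.51 for Cd74, with H2-Aa at -0.35, H2-Eb1 at -0.42 and H2-D1 at -0.27; the SD per probe there was 0.23.

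The third comparison, of ob/ob with WT mice on chow, concerns the liver in genetic obesity. The class II chains read higher in ob/ob, H2-Aa by 0.77 and H2-Eb1 by 0.70, and Cd74 was at 0.18, less than the SD per probe of 0.25. The class II median was 0.70 (0.43 without normalization), beside 0.04 for all expressed genes (-0.15 without normalization). All 4 class I genes read lower: Tapbp at -0.58, Tap1 at -0.27, B2m at -0.23 and H2-D1 at -0.11, the latter pair within the SD per probe, with a median of -0.25. No member was 2-fold apart (0 of 7, where 2.82% of expressed genes were), and 6 of 7 passed the filter. In H2-D1 and Tap1 the sign was opposite to that of the high-fat diet, a comparison that shares the WT chow array.

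The fourth comparison sets ob/ob mice given NDGA in chow against ob/ob mice on chow alone, and concerns the effect of NDGA in genetic obesity. Cd74 was higher with NDGA by 1.35 (2.55-fold), H2-D1 by 0.84 and H2-Aa by 0.79. The other members were below 0 after normalization and above 0 without it: H2-Eb1 at -0.26 against 0.66, B2m at -0.41 against 0.70, Tapbp at -0.36 against 0.55 and Tap1 at -0.09 against 0.43. The array with NDGA had the higher median intensity, 71.0 beside 38.1, although not every probe read higher on it. Without normalization the median of all expressed genes was 0.68, and relative to it Cd74 was at 1.32, H2-Aa and H2-D1 at 1.07, H2-Eb1 at -0.02, B2m at 0.01, Tapbp at -0.14 and Tap1 at -0.25. The class II median was 0.79 and the class I median -0.23 (1.75 and 0.62 without normalization), beside -0.09 for all expressed genes. Cd74 was the only member at least 2-fold higher (1 of 7, where 6.74% of expressed genes were; 7.25% in either direction), and 6 of 7 passed the filter. Without normalization H2-Aa (1.75), H2-D1 (1.75) and Cd74 (2.00) were past 2-fold, 3 of 7 where 32.4% of expressed genes were higher, and after loess Cd74 (1.44) and H2-D1 (1.01), 2 of 7 where 9.44% were. The SD per probe was largest here, at 0.50, and exceeded the differences of H2-Eb1, B2m, Tapbp and Tap1.

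**Figure D2:**
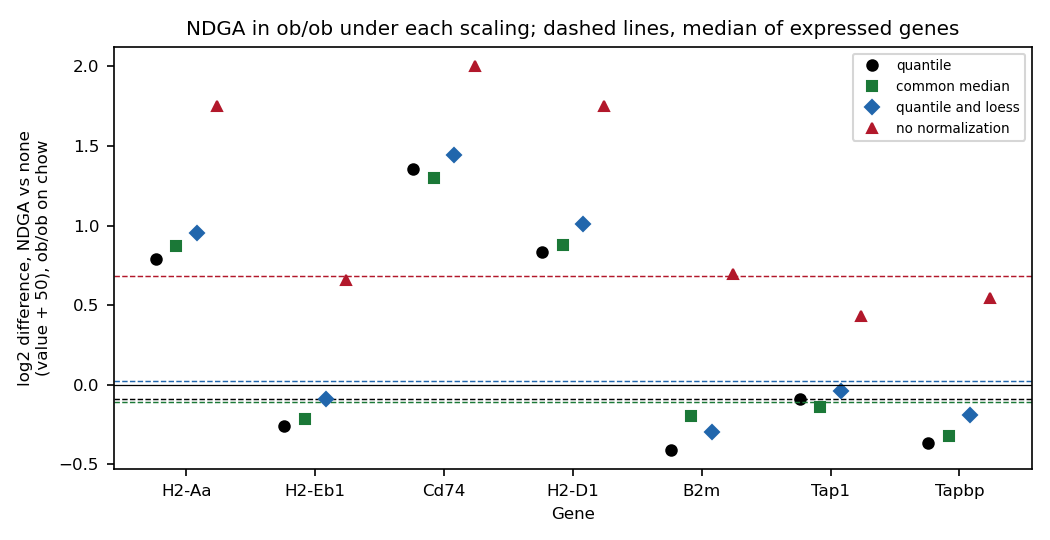
Log2 difference of each measured gene between ob/ob on chow with and without NDGA under 4 ways of scaling the arrays; dashed lines give the median of expressed genes under each. Cd74, H2-Aa and H2-D1 lie above that median under every scaling shown, and H2-Eb1 lies just below it under every one.

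The NDGA differences of WT and ob/ob mice had opposite signs for H2-Aa (-1.27 and 0.79), Cd74 (-1.10 and 1.35), H2-D1 (-0.80 and 0.84) and Tapbp (0.40 and -0.36, with 0.55 in place of -0.36 without normalization). For H2-Eb1 the differences were -0.79 and -0.26, with 0.66 in place of -0.26 without normalization. Diet, genotype and array differ together between these pairs, and with 1 array per group the difference between them was not tested.

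Of 15 other genes of the class II pathway, 12 were measured and 7 expressed in each comparison, and with the diet or with NDGA on it 0 of 7 were 2-fold apart (2 were lower with NDGA when arrays were scaled to a common median). Ctsb, the protease cathepsin B, was at 0.95 with high-fat diet and -0.95 with NDGA on that diet, and Lgmn, the asparagine endopeptidase legumain, at 0.63 and -0.96. In ob/ob against WT, Lgmn was at 1.03, the only 1 of the 7 past 2-fold (0 of 7 without normalization), where 2.82% of all expressed genes were. With NDGA in ob/ob Ctsb was at 1.20, also 1 of 7, and 0 were lower. There 6.74% of all expressed genes were at least 2-fold higher. Cd86, a co-stimulatory ligand for T cells, was at 0.69 with high-fat diet, -0.62 with NDGA on that diet and 0.55 in ob/ob. Of the peptide exchange factor H2-DM, the alpha chain gene H2-DMa was at -0.61, 0.60 and -0.72 in these 3 comparisons, opposite in sign to H2-Aa. Both Cd86 and H2-DMa lay within the olfactory receptor range on all 5 arrays. The beta chain gene H2-DMb2, above that range throughout, was at 0.80 in ob/ob, close to H2-Aa (0.77), and at -0.78 with NDGA in ob/ob (0.16 without normalization). The list medians were 0.05 for the diet, -0.23 for NDGA on it, 0.34 for ob/ob and -0.36 for NDGA in ob/ob (0.06 and 0.61 without normalization).

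Among the partners of class I in the proteasome and peptide loading complex, 12 of 12 were measured and 7 or 8 expressed, and 0 were 2-fold apart in any of the 4 comparisons; scaled to a common median, 1 was lower with NDGA on high-fat diet, and without normalization 2 were higher with NDGA in ob/ob. Psmb9, an interferon-inducible immunoproteasome subunit, was at 0.62 with high-fat diet and -0.67 with NDGA on it, with all 5 readings inside the olfactory receptor range, and Psme2, a subunit of the proteasome activator PA28, at 0.27 and -0.56. Pdia3, the disulphide isomerase of the loading complex, was at -0.63 with NDGA in WT and -0.55 in ob/ob against WT. Psmb8, another immunoproteasome subunit, was at -0.41 with NDGA on high-fat diet and at -0.88 with NDGA in ob/ob, the latter 0.01 without normalization and -0.23 as the mean of its probes. Tap2, the other TAP subunit, read 41 or less on all 5 arrays. List medians were 0.12, -0.35, -0.12 and -0.09 in the order of the comparisons above; without normalization the third was -0.37 and the last 0.80, and after loess the last was 0.08.

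Of 18 class I-like and non-classical genes, 11 were measured. H2-T23, which encodes the non-classical heavy chain Qa-1, was at 0.66 with high-fat diet, -0.74 with NDGA on it, -0.42 in ob/ob against WT and 1.58 with NDGA in ob/ob. Its intensity was 375, 618 and 380 in the 3 WT groups, 233 in ob/ob on chow and 1447 with NDGA. In that last comparison 3 of 7 expressed genes of the list were at least 2-fold higher and 0 lower, where 6.74% of all expressed genes were higher: H2-T23, Azgp1 (1.43), a secreted class I-like zinc-binding protein, and Cd1d1 (1.10), which presents lipids to NKT cells. In the other 3 comparisons 0 of 7 or 8 were 2-fold apart, except 1 lower with NDGA on high-fat diet when arrays were scaled to a common median.

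The master regulators of transcription gave no reading to interpret. Ciita, the coactivator that switches on class II genes, read 10.3 to 14.9 on all 5 arrays, below the median of the olfactory receptor probes (16.4 to 25.9), and Nlrc5, its class I counterpart, was not analysed here. H2-Ea, whose product is the alpha partner of the H2-Eb1 chain and which C57BL/6 mice do not express, read 40.9 to 110, within the olfactory receptor range, and was highest on the WT high-fat NDGA array where the class II genes were lowest. Its differences were 0.25, 0.46, 0.21 and -0.27 in the order of the comparisons. Between the WT high-fat NDGA and chow arrays H2-Ea was at 0.71, where Cd74, also dim, was at -0.51. Of the other regulators, Irf2, an interferon regulatory factor that can repress or activate MHC genes, read 6721, 2154 and 4782 in the 3 WT groups, 751 in ob/ob on chow and 935 with NDGA. Its differences were -1.67, 1.21, -2.89 and -0.57 (the last 0.30 without normalization). It was the only expressed regulator past 2-fold in the first 3 comparisons, of 7 or 8. Of all expressed genes 3.46%, 2.46% and 2.82% were past 2-fold in these. Scaled to a common median, the second difference of Irf2 was 0.89. Irf1, which activates class I genes, was at -0.16 with high-fat diet, -0.40 with NDGA on it, -0.25 in ob/ob (-0.54 without normalization) and -0.75 with NDGA in ob/ob (0.17 without normalization). Rela, the p65 subunit of NF-kappaB, was at 1.14 with NDGA in ob/ob. It was the only 1 of 8 expressed regulators past 2-fold there (4 without normalization), where 7.25% of all expressed genes were. The readings of Rela, 49.5 to 279, lay within the olfactory receptor range on all 5 arrays.

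Markers of antigen-presenting cells were read beside these genes, since in whole liver fewer cells of a type and less RNA per cell cannot be told apart. Of 16 macrophage and Kupffer cell markers, 12 were expressed in each of the first 3 comparisons. On high-fat diet the level of 5 was 2-fold or more above chow and that of 0 below (median 0.78), where 2.13% of all expressed genes were higher. With NDGA on that diet 5 were lower and 0 higher (median -0.88), where 1.56% of all expressed genes were lower; without normalization the counts were 3 and 0. For ob/ob against WT the counts were 3 and 0, with a median of 0.81, and 1.03% of all expressed genes were higher. With NDGA in ob/ob 2 of 13 were higher, Adgre1 (1.09) and Mpeg1 (1.03), and the median was 0.06. In that comparison 6.74% of all expressed genes were higher. Without normalization 5 were higher and the median was 0.93, beside a median of 0.68 for all expressed genes. The share of all expressed genes past 2-fold was then larger too, as given for the fourth comparison. The summed normalized level of the macrophage markers was 6477 on the WT high-fat NDGA array, 7761 in WT on chow, 12213 on high-fat diet, 15682 in ob/ob on chow and 14257 with NDGA. The list was thus lowest on the same array as the class II genes. This was not particular to it. The sums of sinusoidal endothelial (21704) and hepatocyte markers (197176) were also lowest there. So were those of the class II pathway genes (9539) and the class I partners (25366), but not those of the remaining lists. The macrophage sum was highest in ob/ob on chow. The median log2 level of the macrophage markers, each gene centred on its own mean, was highest with NDGA in ob/ob (0.43 against 0.35 without NDGA). Sinusoidal endothelial markers had medians of 0.19, -0.36, 0.28 and -0.07 (the latter pair 0.07 and 0.83 without normalization, and the last 0.10 after loess). Lyve1 had the largest differences of that list in the first 3 comparisons (0.89, -0.93 and 1.21), and exceeded the olfactory range on only 1 array. Of 11 dendritic cell markers 0 exceeded the olfactory range on any array, with Itgax, Flt3 and Xcr1 below an intensity of 20 throughout, and their summed level stayed between 557 and 623. Of 8 B cell markers 0 exceeded it either, and Blk, Cr2 and Jchain were below 20; the summed level ran from 668 to 1013. T and NK cell markers summed to between 1845 and 2809. Of these 12 markers 2 exceeded the olfactory range on at least 1 array: Cd3e (762 to 1168) on all 5 and Il7r on 1. Cd3d, Ncr1, Nkg7 and Gzma were below 20. The part of macrophage and endothelial markers in the class II readings was not tested.

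**Figure D3:**
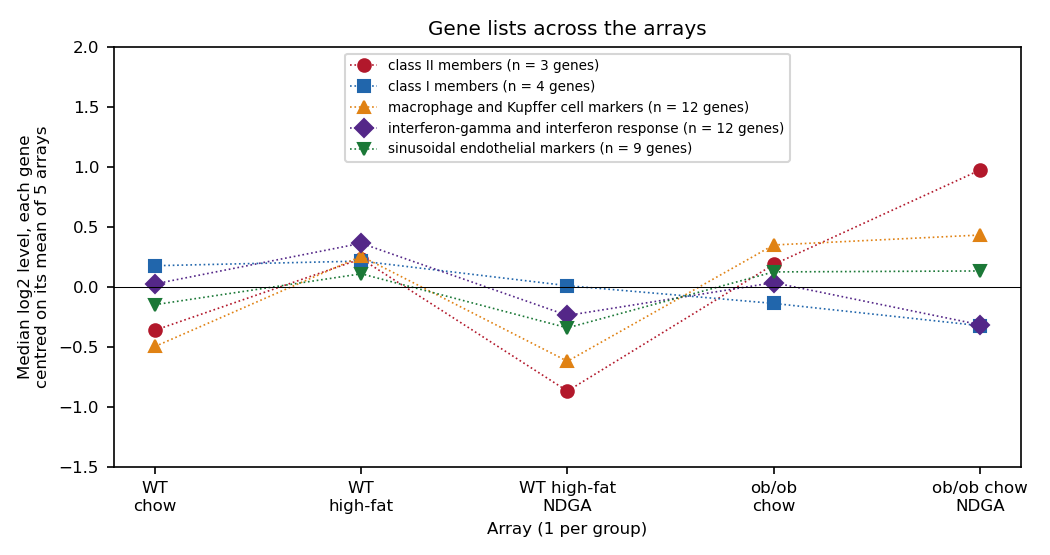
Median log2 level of each gene list on the 5 arrays, with every gene centred on its own mean (quantile-normalized values + 50). Class II genes run from -0.87 on the WT high-fat NDGA array to 0.97 on the ob/ob NDGA array; macrophage markers run from -0.62 to 0.43, with the ob/ob arrays 0.35 and 0.43.

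Interferon response genes were 0.37 as a median with high-fat diet, where 1 of 13 expressed was at least 2-fold higher (Ifi47, an interferon-inducible GTPase, 1.00; 0 of 13 without normalization). Of all expressed genes 2.13% were higher there. With NDGA on that diet the median was -0.67. Of 13 expressed interferon genes 5 were lower and 0 higher (3 and 0 without normalization), where 1.56% of all expressed genes were lower. Gbp3 and Igtp, GTPases induced by interferon-gamma, were at -1.33 and -1.26. In ob/ob against WT the median was 0.10 (-0.20 without normalization). With NDGA in ob/ob it was -0.40, or 0.51 without normalization, where all expressed genes had 0.68. There Bst2, an antiviral tether, was at -0.87 (0.21 without normalization), and Cxcl9, a chemokine induced by interferon-gamma, at -0.68 (0.22 without normalization, -0.37 as the mean of its probes). In that comparison H2-Aa, Cd74 and H2-D1 lay above the median of all expressed genes and the interferon list below it, both with and without normalization. Skeletal muscle markers stood at a median of 2.06 on the high-fat NDGA array against high-fat diet alone (7 of 10 expressed at least 2-fold higher, where 0.902% of all expressed genes were), the same array on which class II genes were lowest. Their summed level was 12156 there, 4336 in ob/ob with NDGA and 2685 to 3546 on the other arrays. On the ob/ob NDGA array, where H2-Aa and Cd74 were highest, Ckm, the muscle creatine kinase, read 316 beside 12.4 in ob/ob on chow, and Mylpf, a fast muscle myosin light chain, 363 beside 40.9. The list's median for NDGA in ob/ob was 0.44, with 1 of 7 at least 2-fold higher (1.16 and 5 of 7 without normalization). In that comparison 6.74% of all expressed genes were at least 2-fold higher, and a larger share without normalization. The muscle markers' part in the class II readings was not tested.

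The genes closest in pattern to the class II genes, by the root mean square difference over 5 arrays between centred log2 values among 8312 expressed genes, were Ndst1 (0.042), which modifies heparan sulphate, Iqgap1 (0.088), a cytoskeletal scaffold, Cyba (0.091), the p22 subunit of the phagocyte NADPH oxidase, Eif2ak3 (0.13), the stress kinase PERK, and Tmem86a (0.15), a lysoplasmalogenase. The class II genes themselves lay 0.14 to 0.31 from their mean profile and the median gene 0.58. Cyba read 89.2, 168 and 72.4 in the 3 WT groups, 128 in ob/ob on chow and 374 with NDGA. All readings of Cyba, Iqgap1, Eif2ak3 and Tmem86a lay within the olfactory receptor range. Closest to the class I mean were Eva1a (0.028), Proz (0.036), Trim30d (0.044), Senp1 (0.047) and Ammecr1l (0.048). The class I members themselves lay 0.097 to 0.40 from that mean, beside a median of 0.26 for all candidates. The closest member was thus nearer to it than the median candidate, and the farthest was not.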

How the data were processed

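The authors deposited 1 column of probe intensities per group for 29922 probes; the unit was judged from the values. The labels do not state how the arrays were scanned, corrected for background or scaled. Of these probes 21020 carried 1 gene symbol, 0 several, and 8902 were unnamed here; 17558 symbols were current in RefSeq (GRCm38.p6), 3410 were updated by a synonym that only 1 gene carries, and 52 stayed as they were. The probe with the highest mean represented a gene. Values were quantile normalized and log2(value + 50) differences taken with Python 3.11.15 and pandas 2.3.3; genes at or above the median over genes of the mean of both arrays counted as expressed, and a log2 difference of at least 1 was counted. The steps were tested on simulated data. With 1 array per group there is no test, and the number of arrays limits the precision. Named genes are the 9 members, up to 4 expressed genes per list with the largest difference in a comparison, Ciita, Nlrc5, H2-Ea, Tap2, Psmb8, Psmb9, and the 5 genes nearest in pattern; albumin was named as a check of the tissue. Members and the 13 other lists were chosen with earlier results of these data known. There were 7 alternatives: no normalization, a common median, loess (span 0.3), an offset of 16, the mean of probes, no filter, and a filter at the 75th percentile.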

Additional observations from a re-analysis of the deposited data

Results flagged for a closer look

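The NDGA differences of H2-Aa and Cd74 had opposite signs in WT mice on high-fat diet and in ob/ob mice on chow, with at least 1 of them past 2-fold. For H2-Aa the difference in ob/ob exceeded that in WT by 2.06 on the log2 scale (0.79 against -1.27), and for Cd74 by 2.46 (1.35 against -1.10). Each side is 1 array against 1, and the difference was not tested.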

How the results depend on the processing

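Each value rests on 1 array per group, and every member on 1 probe, so the mean of probes cannot alter a member and the filters act only on the genes set beside it. A value is said to move when it shifted by more than the SD per probe, and a count when it shifted by over 1.5 times. Without normalization, the class II median was 0.43 for ob/ob against WT, 1.75 with NDGA in ob/ob, and the class I median for NDGA in ob/ob was 0.62; 1 member was 2-fold apart for NDGA on high-fat diet and 3 for NDGA in ob/ob. After loess, 2 were 2-fold apart for NDGA in ob/ob. Of all expressed genes 32.4% were 2-fold higher in that comparison without normalization and 9.44% after loess (6.74% with quantile normalization alone). The other medians and counts moved under none of the 7 alternatives. Without normalization 1.11% of expressed genes were 2-fold higher and 1.11% lower with NDGA on high-fat diet (0.902% and 1.56% with it), and 0.565% and 2.43% in ob/ob against WT (1.03% and 1.79% with it). With an offset of 16, Cd74 was at -1.56 for NDGA on high-fat diet. Scaling to a common median put B2m at -0.43 for that comparison and -0.55 for ob/ob against WT. Cd74 and Tap1 lay within the range of olfactory receptor probes, which limits how far their differences can be read. No paired analysis was possible because each group has 1 array.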
